A study of Mus musculus with 10 samples.

Results

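The genes described here are 35 mouse genes of glycolysis and the hypoxia response, chosen by name: the enzymes that turn glucose into pyruvate and lactate, the kinases that steer pyruvate away from the mitochondrion, and genes known to be switched on when oxygen is short. All probes carrying one of these symbols were followed over the 10 arrays of the series. Of the 35 genes, 32 had a probe named in the symbol table, with 65 of the 45281 probes between them, and 30 had a probe that was detected on at least 1 array (52 probes), out of 9486 such genes in all. Hk2, Gpi1 and Eno1 had no probe with their symbol, and the single probes of Ldhb and Pfkfb3 were not detected on any array, so that 30 genes were tested.

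The study asked which genes set metastatic cells of the brain apart. It profiled sublines of 4T1, a mammary carcinoma line from the BALB/c mouse, which had been tagged with firefly luciferase, grown as tumours in syngeneic female BALB/c mice of 6 to 8 weeks and recovered from 4 brains (B), 3 lungs (L) and 3 primary tumours (T, called P in the array labels). The cells were regrown in DMEM with serum for 3 to 4 passages before RNA was taken, no cell sorting is described for these sublines, and no oxygen level is given for the cultures. The design text calls the injection orthotopic and the methods call it subcutaneous. All groups thus share the line, the tag and the culture medium, and the values describe cultured cells rather than the metastases themselves. Primary tumours were chopped and digested with collagenase, while lungs and brains were pushed through a sieve. The first dishes and volumes of medium differed as well. In B against T and L against T this handling cannot be told apart from the origin. The sublines were isolated independently, with 1 array each, and the p-values measure the spread between sublines.

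Glycolysis splits glucose in a hexose phase that spends ATP and a triose phase that returns it, and lactate dehydrogenase regenerates the NAD+ that the pathway needs. When oxygen falls, prolyl hydroxylases stop marking the alpha subunits of the hypoxia-inducible factors (HIF) for destruction, and HIF then binds short DNA sites and raises transcription of most glycolytic enzymes, of Vegfa and of carbonic anhydrase 9. Many tumours run glycolysis fast even with oxygen present. Since HIF is controlled mainly through protein stability, mRNA of Hif1a itself says little about its activity, and the mRNA of its targets is the usual readout.

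The core of the DNA site to which HIF binds is ACGTG or GCGTG. These letters were searched on both strands of the promoter windows that RefSeq gives on the mouse build GRCm38.p6, each running from 250 bases before to 50 bases after a transcription start (300 bases). A window was held for 33 of the 35 genes, 49 windows in all, and Bhlhe40 and Ndrg1 had none. At least 1 core lay in a window of 30 genes, and the share of all genes with a core was not counted. Of the 49 windows, 77.6% held a core, against 43.8% of all 32851 windows. Some windows of the same gene overlapped, as in Eno1, Aldoa and Pfkm, so that a site could count in more than 1 window. ACGTG was in 49% against 19.6%, and GCGTG in 57.1% against 32.4%. The E-box CACGTG, a site of other factors that contains ACGTG, was in 8.16% against 7.15%. The windows of these genes were also richer in G and C, with a median of 61.3% against 52.7% over all windows. Below are 6 of the windows, read 5′ to 3′ on the strand of the gene, with each core in capitals (CACGT and CACGC are the cores of the opposite strand). They are shown because the first 4 genes are among the 5 that passed as higher in B against T, Car12 was lower, and Ldha, whose window holds the most of these 6, passed the test in no comparison. Vegfa, the other gene that passed as higher, is not shown. The first of its 2 windows held 2 cores and the second window held 0. The positions are chr4:43506776-43507075 for Car9 (plus strand), chr10:59323046-59323345 for P4ha1 (plus), chr11:78322823-78323122 for Aldoc (plus, the first of 2 windows), chr9:108991652-108991951 for Pfkfb4 (plus), chr9:66713436-66713735 for Car12 (plus) and chr7:46845554-46845853 for Ldha (plus, the first of 2 windows).
Car9: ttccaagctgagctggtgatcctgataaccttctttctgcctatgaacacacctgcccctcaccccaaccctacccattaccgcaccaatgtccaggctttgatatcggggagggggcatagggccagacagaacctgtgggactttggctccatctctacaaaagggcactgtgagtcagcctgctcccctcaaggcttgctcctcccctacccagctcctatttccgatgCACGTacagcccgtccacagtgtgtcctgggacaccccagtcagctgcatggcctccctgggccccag
P4ha1: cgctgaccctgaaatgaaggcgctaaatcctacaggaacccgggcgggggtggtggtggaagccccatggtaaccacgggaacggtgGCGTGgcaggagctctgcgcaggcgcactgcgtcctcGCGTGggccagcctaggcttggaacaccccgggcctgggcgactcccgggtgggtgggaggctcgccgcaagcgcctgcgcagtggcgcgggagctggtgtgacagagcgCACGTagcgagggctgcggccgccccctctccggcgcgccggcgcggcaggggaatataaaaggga
Aldoc: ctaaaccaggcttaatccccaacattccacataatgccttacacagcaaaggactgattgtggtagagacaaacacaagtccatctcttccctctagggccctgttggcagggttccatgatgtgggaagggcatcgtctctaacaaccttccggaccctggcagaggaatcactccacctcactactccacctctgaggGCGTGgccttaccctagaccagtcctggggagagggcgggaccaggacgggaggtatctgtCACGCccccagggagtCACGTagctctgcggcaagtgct
Pfkfb4: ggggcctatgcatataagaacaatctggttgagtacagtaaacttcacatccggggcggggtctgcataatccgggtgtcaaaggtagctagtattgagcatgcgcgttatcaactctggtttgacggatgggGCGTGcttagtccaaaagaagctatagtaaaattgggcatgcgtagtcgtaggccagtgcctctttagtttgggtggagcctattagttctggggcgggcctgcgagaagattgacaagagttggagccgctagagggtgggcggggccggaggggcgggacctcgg
Car12: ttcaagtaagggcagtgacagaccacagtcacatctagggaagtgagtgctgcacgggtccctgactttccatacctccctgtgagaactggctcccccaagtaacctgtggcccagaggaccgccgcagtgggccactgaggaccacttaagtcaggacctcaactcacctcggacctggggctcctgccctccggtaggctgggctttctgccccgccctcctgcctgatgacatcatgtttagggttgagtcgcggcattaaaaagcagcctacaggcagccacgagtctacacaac
Ldha: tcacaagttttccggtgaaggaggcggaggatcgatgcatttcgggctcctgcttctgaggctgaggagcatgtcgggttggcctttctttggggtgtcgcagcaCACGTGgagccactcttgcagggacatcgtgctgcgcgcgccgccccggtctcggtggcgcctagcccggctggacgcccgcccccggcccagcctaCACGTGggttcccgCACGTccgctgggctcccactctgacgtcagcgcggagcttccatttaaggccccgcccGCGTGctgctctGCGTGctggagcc
Car9 has 1 core, 18 bases before the start. P4ha1 and Aldoc have 3 each, Pfkfb4 has 1, and Car12 has 0 in these 300 bases. Ldha has 7 when both strands are counted, and each of its 2 E-boxes counts once on either strand. A match of letters is not a measured binding site, and no binding was measured here.

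Values below are background-corrected and quantile-normalised probe intensities on the log2 scale, and a probe was detected where its deposited detection p was 0.01 or less. Each array had 14218 to 15563 detected probes, and the median intensity lay between 68.81 and 85.95. As a check of the labelled cell type, 8 of 10 markers of mammary carcinoma epithelium were detected, and Epcam and Krt5 were not. Their median difference was -1.31 on the log2 scale between B and T, and Krt14, a basal keratin, had normalised log2 values of 4.75 to 7.55 on the B arrays, against 10.10 to 11.63 on the T arrays. Markers of other cells were sparse. Of the astrocyte list 1 of 8 was detected (Gja1, at a normalised intensity of 10300 to 11100 in B, 9060 to 11200 in L and 10000 to 10600 in T, while Gfap, Aqp4 and Slc1a2 were not), of the endothelial list 0 of 8 and of the erythroid list 0 of the 4 with a probe. Of the macrophage and microglia list 3 of the 11 with a probe were detected, with a summed normalised intensity of 174 to 386 in B, 476 to 623 in L and 290 to 381 in T, while Ptprc and Csf1r were not. Of the lung epithelium list 1 of 7 was detected (Ager), and the surfactant genes were not. Of the fibroblast and pericyte list 4 of 10 were detected, with sums of 722 to 2930 in B, 417 to 659 in L and 193 to 317 in T. Pdgfra differed by 2.40 between B and T (adjusted p = 0.0168), while Col1a1, Col1a2 and Col3a1 were not detected. B3 stood somewhat apart: its highest correlation with any other array was 0.9645, against 0.9749 to 0.9885 for the others. On it Pdgfra was at 11.45 (9.18 to 9.43 on the other B arrays), Cdh1, the epithelial cadherin, at 8.32 (9.66 to 10.23) and Krt19, a luminal keratin, at 6.29 (8.08 to 8.58). Of the 8 epithelial genes 3 were lower in B at an adjusted p under 0.05, against T and against L. Their summed intensities overlapped, at 24600 to 36900 in B and 26900 to 34500 in T. Of the macrophage list 0 of 2 tested genes passed between B and T, and 2 of 3 were lower in B than in L. Of the fibroblast list 1 of 4 passed between B and T, and 0 of 3 between B and L. The part of these lists in the results was not tested. In such bulk RNA, fewer cells of a type and less RNA per cell cannot be told apart.

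Brain-derived sublines differed from primary tumour sublines in 6 of the 30 measured genes, and not in 1 direction. Aldoc, Car9, Pfkfb4, P4ha1 and Vegfa were higher in B and Car12 was lower, by limma's moderated test with Benjamini-Hochberg adjustment over all genes at 0.05. The 6 genes are 20% of the 30, and of all 9352 genes tested in this comparison 14.4% were called, 7.53% as higher and 6.91% as lower. The median difference of the 30 was 0.08 on the log2 scale, against -0.01 over all genes. The B arrays lay wholly above the T arrays in 5 of the genes and wholly below them in 6, where 30.5% of all genes had groups that did not overlap. With median scaling of the arrays the split was 3 higher and 2 lower, and in the authors' processed values 5 higher and 3 lower. Counts for single fits without an array ranged from 1 to 6, and were 2 without B1, 4 without B3 (Aldoc and Car9 higher, Car12 and Bhlhe40 lower), 1 without T1, 2 without T2 and 1 without T3.

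Lung-derived sublines differed from primary tumour sublines in 0 of the 30 by limma and by the methods' t-test after the same adjustment. At an unadjusted p under 0.05 limma gave 2 higher and 3 lower, and the lowest adjusted p was 0.0697, of Ankrd37. Over all 8974 genes this comparison called 0.412%, with 0.379% higher and 0.0334% lower. The median of the 30 was 0.12, against -0.01 over all genes. The groups did not overlap in 3 genes above and 5 below, where 20.2% of all genes had groups apart. Without T2, 1 gene was called, Bhlhe40.

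Between brain and lung sublines, 3 of the 30 were called (10%), Bhlhe40, Car12 and Tpi1, and all 3 were lower in B. The background was 8.07% of 9423 genes, with 3.83% higher and 4.23% lower in B. The median of the 30 was -0.08, against -0.00 over all genes. The groups did not overlap in 5 genes above and 5 below, against 24.9% of all genes. B and L arrays with the same number deviated together, and with the number as a block, over arrays 1 to 3 of each group and so without B4, 6 were called, with Aldoc and Pfkfb4 added as higher and Adm as lower. In the authors' processed values 2 were higher and 3 lower. Single fits without an array called 1 to 6, with 1 without B1, L1, L2 or L3, 3 without B3 (Ankrd37 higher, Bhlhe40 and Car12 lower) and 6 without B4. The comparisons share arrays, and their values for a gene are not independent of each other.

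**Figure D1:**
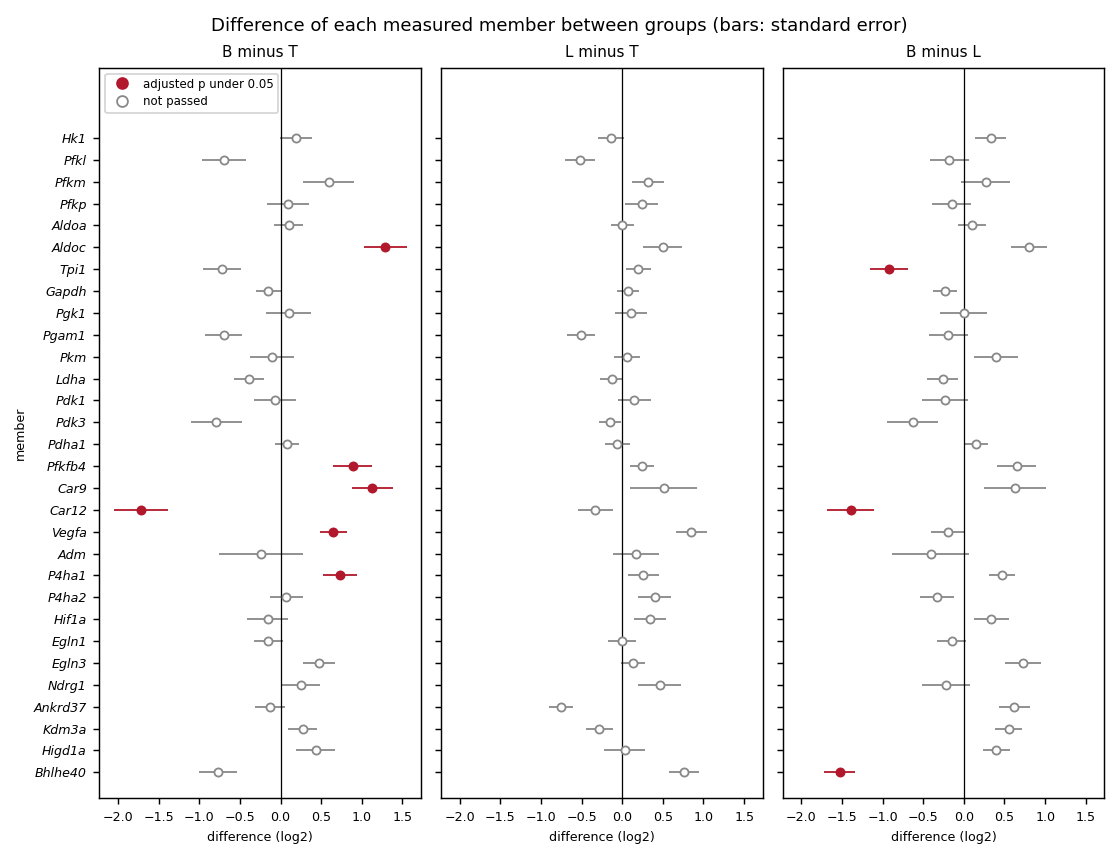
Difference on the log2 scale (horizontal axis) for each of the 30 measured genes (vertical axis, by role) in B minus T, L minus T and B minus L, with bars for the standard error of the limma fit and filled points for an adjusted p under 0.05. Filled points stand on both sides of 0 in B minus T (5 higher, 1 lower), nowhere in L minus T, and below 0 in B minus L (3 genes).

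Of the genes that act outside the glycolytic chain, in acid balance, vessels and matrix, the 2 carbonic anhydrases went opposite ways in brain sublines. Car9 and Car12 are membrane enzymes with their active site outside the cell, where they hydrate carbon dioxide and help to keep the pH inside the cell up; both are known as hypoxia targets in human tumours. Car9 had log2 values of 9.28, 9.15, 8.67 and 8.74 on the B arrays, 8.74, 7.27 and 8.99 on the L arrays, and 8.37, 7.46 and 7.66 on the T arrays. On this probe, which stands for the gene, all B values lay above all T values, and L was split, with L2 below every other array. The B sublines exceeded T by 1.13 (SE 0.25, 2.19-fold, adjusted p = 0.0209), and the other 2 probes gave 1.21 and 1.05. On those 2 probes B and T overlapped, with T1 at 7.12 and 9.97 above B3 at 7.01 and 9.78. The call was lost without B1, T2 or T3 (adjusted p up to 0.0819), and when the brightest probe on average stood for the gene (adjusted p = 0.0966). The difference was 0.63 between B and L (adjusted p = 0.332) and 0.51 between L and T (adjusted p = 0.607), and neither passed.

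Car12 had values of 6.33, 6.75, 5.41 and 6.49 in B, 7.55, 7.79 and 7.56 in L, and 8.33, 8.07 and 7.49 in T. The B arrays were the 4 lowest, B3 being lowest and not detected there, and L and T overlapped. Car12 was lower in B, with a difference of -1.72 from T (SE 0.33, 3.29 times lower, adjusted p = 0.0118) and of -1.39 from L (SE 0.29, 2.61 times lower, adjusted p = 0.0239). A second probe, detected on all 10 arrays, gave -1.39 and -1.29 (adjusted p = 0.00635 and 0.0122 over all detected probes). The call against T was lost without T1 (adjusted p = 0.0601), and that against L without B1, L1, L2 or L3 (adjusted p up to 0.114). In the authors' processed values the differences were -0.82 from T and -0.60 from L, smaller but called (adjusted p = 0.00959 and 0.0153). L and T differed by -0.33 (adjusted p = 0.51).

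**Figure D2:**
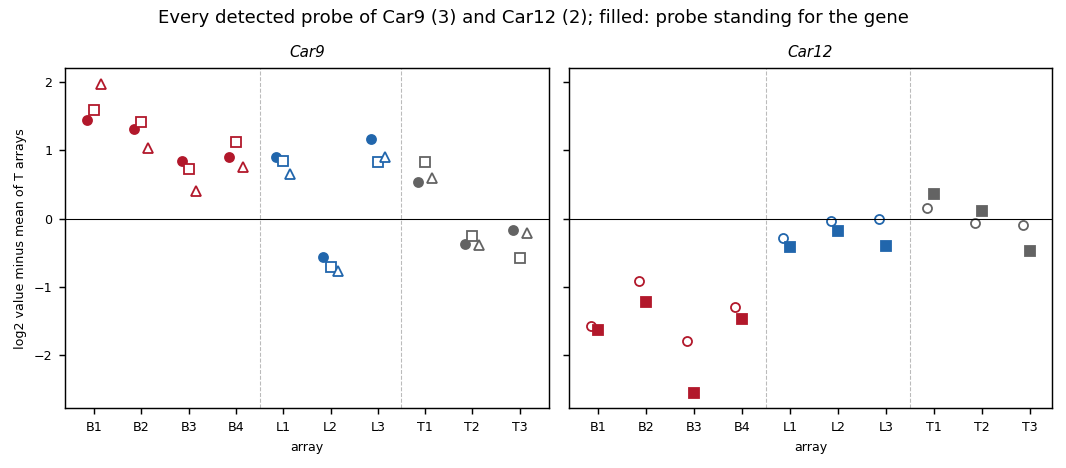
Log2 value of every detected probe of Car9 (3 probes) and Car12 (2 probes) on each array (horizontal axis), minus the mean of that probe over the T arrays (vertical axis). Marker shapes are probes, filled markers the probe that stands for the gene and colours the groups. The probes of each gene move together over the arrays, with B above the T mean for Car9 and below it for Car12.

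Vegfa, the main growth factor for blood vessels, was the one gene of the 30 in which both metastatic groups lay above all T arrays. This holds on the probe that stands for the gene, and the share of all genes with this pattern was not counted. Its values were 9.83, 9.69, 10.22 and 9.83 in B, 10.49, 9.80 and 9.98 in L, and 9.23, 9.32 and 9.18 in T. B exceeded T by 0.65 (SE 0.17, 1.57-fold, adjusted p = 0.0373). The call was lost in each fit without 1 array but that without B2 (adjusted p up to 0.123), and with median scaling (adjusted p = 0.0888). The difference between L and T was 0.85 (SE 0.19, 1.8-fold), with an adjusted p of 0.095 that did not pass. A second probe gave 0.43 for B and 0.91 for L, both against T (adjusted p = 0.128 and 0.069). On this second probe B4, at 6.85, lay below T3, at 6.93. On the probe that stands for the gene B and L overlapped, with a difference of -0.20 (adjusted p = 0.61).

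P4ha1 encodes a catalytic subunit of the prolyl hydroxylase that lets collagen fold. It had values of 9.00, 8.54, 8.71 and 8.86 in B, 8.26, 8.28 and 8.37 in L, and 8.21, 8.29 and 7.63 in T. On this probe, which stands for the gene, the B arrays stood above both other groups. The difference of B from T was 0.73 (SE 0.21, 1.66-fold, adjusted p = 0.045), that of B from L was 0.47 (adjusted p = 0.106), and a second probe gave 0.44 against T (adjusted p = 0.202). On the second probe B and T overlapped, with T1 at 6.47 above B1 at 6.33. The call was kept only without B2 among the fits that left out 1 array (adjusted p up to 0.156), and was lost with median scaling (adjusted p = 0.0655). P4ha2, its paralogue with the same role, differed by 0.07 between B and T, by 0.40 between L and T and by -0.33 between B and L, and none of these passed. Adm, the gene of the vasodilator peptide adrenomedullin, had the largest SD of the 30 genes in B (1.04), with values of 7.08, 6.69, 6.28 and 8.65 in B, 7.84, 7.51 and 7.41 in L, and 6.88, 8.10 and 7.27 in T. B4 was the highest of all arrays and B3 the lowest. B differed from T by -0.24 (adjusted p = 0.789) and from L by -0.41 (adjusted p = 0.632); with the block, which leaves out B4, the difference from L was -0.90 (adjusted p = 0.0389).

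**Figure D3:**
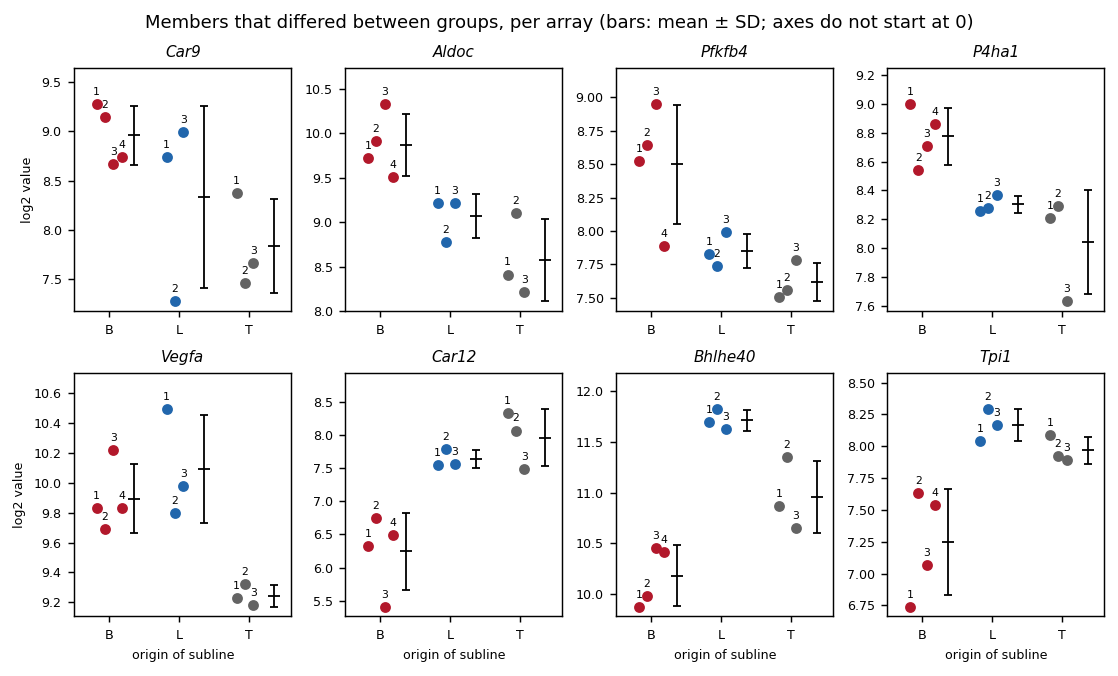
Log2 values on each array (vertical axis, not starting at 0) of the 8 genes called in at least 1 comparison, for B, L and T sublines (horizontal axis), with the array number beside each point and bars for the mean and SD (n = 4, 3 and 3). B stands above T in the first 5 panels and below it in Car12, Bhlhe40 and Tpi1, of which only Car12 passed against T.

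The hexose phase had 6 measured enzymes, and 1 of them differed. Aldoc, the aldolase isoform best known from brain, had values of 9.72, 9.91, 10.33 and 9.51 in B, 9.21, 8.78 and 9.22 in L, and 8.41, 9.10 and 8.21 in T. All B values were above all others, while L and T overlapped at T2. B exceeded T by 1.29 (SE 0.26, 2.45-fold, adjusted p = 0.0151), a call lost without T1 or T3 (adjusted p up to 0.0723). A second probe, detected on 1 array, gave 0.43 against T. The difference between B and L was 0.80 (adjusted p = 0.0584), and with the block 0.91 (adjusted p = 0.0492). Aldoa, the general aldolase, differed by 0.10 between B and T and by 0.00 between L and T.

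Hk1, which phosphorylates glucose on entry, differed by 0.19 between B and T, by -0.14 between L and T and by 0.33 between B and L, with B3 at 6.95 below the other B arrays at 7.51 to 7.53. The phosphofructokinases set the committed step of the pathway. Pfkm, the muscle type, differed by 0.59 between B and T (adjusted p = 0.218), and its other probes gave 0.47 and 0.56. Pfkp, the platelet type, differed by 0.09. Pfkl, the liver type, gave -0.70 (adjusted p = 0.104) with a probe detected on 8 arrays and 0.04 with a probe detected on all 10. The 2 Pfkl probes thus disagreed, and no value for the gene was settled. None of these passed in L against T or B against L.

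In the triose phase 5 enzymes were measured, and 1 was called, in B against L only. Tpi1, which interconverts the 2 triose phosphates, had values of 6.74, 7.63, 7.07 and 7.54 in B, 8.04, 8.29 and 8.17 in L, and 8.09, 7.92 and 7.89 in T. B was below both other groups on this probe. The difference from L was -0.92 (SE 0.23, 1.89 times lower, adjusted p = 0.0419) and that from T was -0.72 (adjusted p = 0.0642). The 2 other probes of Tpi1 gave -0.23 and -0.25 against L (adjusted p = 0.385 and 0.4), so the call belongs to 1 of 3 probes. It was also lost without B1, B3, L1, L2 or L3 (adjusted p up to 0.162).

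Pgam1, the phosphoglycerate mutase, had values of 10.39, 10.84, 10.13 and 11.02 in B, 10.73, 11.04 and 10.57 in L, and 11.49, 11.15 and 11.24 in T. T was the highest group on this probe, above every B and L array, while on the other probe T2, at 9.85, lay below B4, at 9.89. The difference was -0.70 between B and T (adjusted p = 0.0723; -0.72 with the other probe) and -0.51 between L and T (adjusted p = 0.224), and neither passed. Gapdh, the dehydrogenase often used as a loading control, differed by -0.15 between B and T, 0.07 between L and T and -0.23 between B and L. Pgk1, the first enzyme to return ATP, gave 0.10 between B and T on one probe and -0.32 on another. Pkm, the pyruvate kinase of tumours, gave -0.15 and -0.21 for B against T and against L on the probe detected on all 10 arrays, and -0.11 and 0.40 on a probe detected on only 2. For L against T it gave 0.06. No adjusted p of these 3 enzymes was under 0.05.

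**Figure D4:**
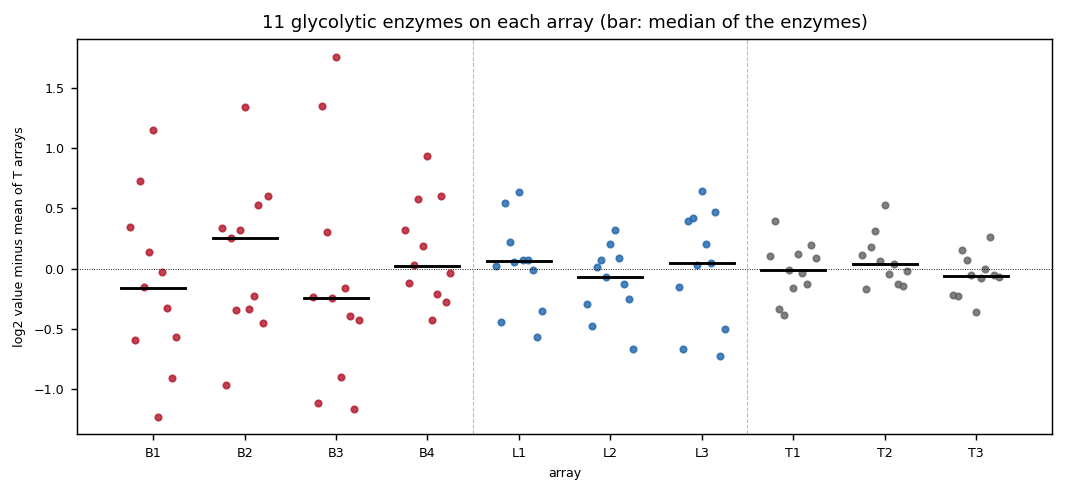
Log2 value minus the mean of the T arrays (vertical axis) for the 11 measured glycolytic enzymes from Hk1 to Pkm on each array (horizontal axis), each point being 1 enzyme and each bar the median of the 11. The medians of the B arrays fall on both sides of 0 (-0.16, 0.25, -0.24 and 0.02), and the highest point on every B array is Aldoc.

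At the branch from pyruvate none of 4 measured genes passed. Ldha, which makes lactate, had values of 13.68, 14.00, 13.46 and 14.07 in B, 14.07, 14.05 and 14.06 in L, and 14.32, 14.08 and 14.18 in T. The B arrays lay just below all T arrays, and the difference was -0.39 (SE 0.19, adjusted p = 0.192). Pdk1 and Pdk3 are kinases that switch off pyruvate dehydrogenase. Pdk3 differed by -0.79 between B and T (adjusted p = 0.117), with values of 10.18, 10.46, 8.99 and 10.13 in B against 10.73, 10.78 and 10.68 in T. All B values were lower, and B3 was far below the rest. Pdk1 differed by -0.07 between B and T and by 0.15 between L and T. Pdha1, the catalytic alpha subunit of pyruvate dehydrogenase, differed by 0.08 and -0.06 in the same comparisons.

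Pfkfb4 is a bifunctional enzyme that makes and removes the strongest activator of phosphofructokinase, and is known as a hypoxia target. It had values of 8.52, 8.64, 8.95 and 7.89 in B, 7.83, 7.74 and 7.99 in L, and 7.51, 7.56 and 7.78 in T. B4 stood apart from the other B sublines, among the L values, and all B values were above T. B exceeded T by 0.89 (SE 0.24, 1.85-fold, adjusted p = 0.0409), and the call was kept only without B4 among the fits that left out 1 array (adjusted p up to 0.14). In the authors' processed values the difference from T was 0.59 (adjusted p = 0.0396). The difference between B and L was 0.65 (adjusted p = 0.128), and with the block, without B4, it was 0.85 (adjusted p = 0.0405). Its relative Pfkfb3 was among the genes not detected.

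Of the oxygen sensors, Egln3 passed against T on the probe detected on all 10 arrays, and not on the probe that stands for the gene. Egln1 and Egln3 are prolyl hydroxylases that mark HIF for destruction, and Egln3 is itself a HIF target. The probe of Egln3 detected on all 10 arrays had values of 11.03, 11.49, 11.43 and 11.02 in B, 10.71, 10.45 and 10.64 in L, and 10.34, 10.51 and 10.56 in T. On it all B arrays were above all others. It gave 0.77 between B and T (SE 0.18, adjusted p = 0.0239 over all detected probes) and 0.64 between B and L (adjusted p = 0.0615). The probe that stands for the gene by the interquartile rule was detected on 3 arrays, all B, and gave 0.47 (adjusted p = 0.137) and 0.73 (adjusted p = 0.0701). That probe entered the tests through B alone, so its direction adds nothing to the other probe. Its lower bound was 1.01-fold over L, and none was reached over T. Egln1 differed by -0.15 between B and T and 0.00 between L and T. Hif1a gave 0.02 between B and T and -0.32 between B and L on the probe detected on all 10 arrays, and 0.34 between L and T; the probe that stands for it in the comparisons with B was detected on 1 array and gave -0.16 and 0.34. None of the Hif1a values passed.

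Bhlhe40 showed the lowest adjusted p of the set. It encodes a helix-loop-helix repressor that HIF induces and that also takes part in the circadian clock. Its values were 9.88, 9.98, 10.46 and 10.42 in B, 11.69, 11.82 and 11.62 in L, and 10.87, 11.35 and 10.65 in T. The 3 groups did not overlap, with L highest and B lowest. The difference between B and L was -1.53 (SE 0.19, 2.88 times lower, adjusted p = 0.00337), and this call was made in all 16 alternatives, with differences of -1.64 to -1.42. The difference was -0.77 between B and T (adjusted p = 0.0517) and 0.76 between L and T (adjusted p = 0.125), and neither passed. A single probe reads this gene.

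The other hypoxia-response genes passed in no comparison. Ankrd37, an ankyrin-repeat protein whose gene is a HIF target, had values of 7.73 to 8.31 in B, 7.37 to 7.62 in L and 8.08 to 8.33 in T. L was the low group, below every B and T array. The difference was -0.75 between L and T (SE 0.15, adjusted p = 0.0697) and 0.62 between B and L (adjusted p = 0.0748). Kdm3a, a histone demethylase, had means of 8.54 in B, 7.99 in L and 8.27 in T, which gave 0.55 between B and L (adjusted p = 0.0754) and -0.28 between L and T. Higd1a, a protein of the inner mitochondrial membrane, differed by 0.43 between B and T and 0.40 between B and L. Its probe was dim, and was detected on 4 B arrays, 1 L array and 1 T array. Ndrg1, a stress-induced gene, differed by 0.25 between B and T and 0.46 between L and T.

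Within each origin the 30 genes varied between sublines about as much as all genes did. The median SD of the 30 genes was 0.32 in B, 0.17 in L and 0.22 in T, against 0.28, 0.19 and 0.20 over all genes. The median deviation of the 30 from their T means was 0.03, -0.00, -0.18 and 0.13 on the B arrays and 0.06, -0.14 and 0.04 on the L arrays. B3 held the lowest value of the 10 arrays for 8 of the genes and L2 for 7, while B4 and L3 held it for 0. B3 also held the highest value for 4, among them Aldoc and Pfkfb4. This is the array that stood apart in the marker genes above, and the part of that in its extremes was not tested. The same subline was thus at the top for some and at the bottom for others. These counts of highest and lowest values were not made over all genes, and are not shown to be particular to the 30.

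Further genes of the same metabolism were taken from 8 lists beside the 35, and 0 of them passed between L and T, where 0.412% of all genes were called. Among sugar and lactate transporters 3 of 9 were detected, and 0 of 3 were called in any comparison. Of other glycolytic isoforms 6 of 15 were tested, and Eno2, the neuronal enolase, was the one called. It had values of 7.72, 8.43, 8.40 and 7.74 in B, 6.87, 6.86 and 6.84 in L, and 5.86, 7.37 and 7.20 in T. B stood above both groups, by 1.26 over T (adjusted p = 0.0479) and by 1.22 over L (adjusted p = 0.0141). The first of these calls was lost without any 1 of the 7 arrays (adjusted p up to 0.133), and the second without L1, L2 or L3 (adjusted p up to 0.0765).

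Of gluconeogenesis and glycogen genes 5 of 17 were tested, and between B and T 2 were higher and 1 lower. Ugp2, which makes UDP-glucose, differed by 0.95 and Pfkfb2 by 0.64. Pygl, the liver glycogen phosphorylase, was not detected on any B array and was at least 1.27-fold lower in B in the normalised intensities, a call lost in the authors' processed values (-0.21, adjusted p = 0.0881). Of the pentose phosphate pathway 9 of 12 were tested, and between B and T Rpe was higher (0.99) and Prps1 lower (-0.60). Tkt was called as lower in B than in L (-0.71) on a probe detected on 0 of 4 B arrays and 1 of 3 L arrays. The call was lost in 6 of 9 settings other than leaving out an array, and the brightest probe of Tkt gave 0.12 (adjusted p = 0.666), so that no direction was settled. Of the pyruvate dehydrogenase complex and its regulators 0 of 5 were called.

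Of the tricarboxylic acid cycle 14 of 17 genes were tested between B and T. Mdh1, a malate dehydrogenase, was called as higher in B against T and against L on a probe detected on all 4 B arrays and on 0 of the others, which entered the tests through B alone. The brightest probe of Mdh1 gave 0.22 against T and 0.36 against L (adjusted p = 0.397 and 0.244), so that the call belongs to the dim probe. Sdhc was higher (0.59) and Suclg1 lower (-0.64), both between B and T. Of HIF pathway components 16 of 20 were tested. Cited2, which competes with HIF for its coactivator, was lower (-0.82) and Os9 higher (0.65) in B than in T. The remaining 14 were not called.

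Of 41 other hypoxia targets 26 were tested between B and T, with 3 higher and 2 lower, and 25 between B and L, with 3 higher and 0 lower. Cxcr4, the chemokine receptor, had values of 6.31, 6.25, 5.79 and 5.80 in B, 4.72, 4.96 and 4.57 in L, and 4.68, 4.66 and 4.62 in T. It was detected on all 4 B arrays and on 0 of the others, and so entered the tests through B alone, where it was high. The lower bound of the difference was 1.14-fold over T and 1.23-fold over L. The limma test gave adjusted p = 0.00324 and 0.00765 for the normalised differences of 1.39 and 1.29, not for these bounds. Angptl4, a secreted inhibitor of lipoprotein lipase, was lower in B than in T (-1.41), as was Tfrc, the transferrin receptor (-0.88). Kdm4b (0.63) and Insig2 (0.58) passed as higher in B against T, and Flt1, a receptor for Vegfa, (1.02) and Narf (1.01) were higher in B than in L. Across these lists 22 calls were made, and each except those of Cxcr4 was lost in at least 1 of the fits without an array. The probe of Cxcr4 passed the filter through B alone, and leaving out an array does not test that. When the brightest probe on average stood for each gene, the calls of Eno2, Mdh1, Suclg1, Cited2 and Tfrc against T and of Tkt and Mdh1 against L were lost. For Eno2 the difference stayed at 1.26, and only the adjusted p moved, to 0.0548. With the block, those of Tkt and Flt1 against L were lost (adjusted p = 0.0521 and 0.0534). Shares of called genes in these lists can be read against those of all genes: 14.4% in B against T, 8.07% in B against L and 0.412% in L against T.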

How the data were processed

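RNA of 10 cultured 4T1 sublines was measured on Illumina MouseWG-6 v2.0 bead arrays. The authors extracted the raw probe intensities with GenomeStudio and deposited them without normalization. A detection p-value per probe was deposited beside every intensity. The authors also deposited processed values on a scale close to log2, made with lumi after a filter on detection (p of 0.01) by stabilizing the variance and normalizing with robust splines. For GenomeStudio, lumi and the slides of the arrays, no version or number is given in the sources used here.

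The intensities were background-corrected by detection p and quantile-normalized with neqc (offset 16) of limma 3.58.1, run in R 4.3.3. A probe counted as detected at a detection p of 0.01 or less. In each comparison, probes had to carry 1 gene symbol and be detected somewhere in the 2 groups, and the one most variable over the 10 arrays, by interquartile range, stood for its gene. Of 34903 probes with a symbol 34885 had 1 symbol, and 3721 genes had more than 1 detected probe. B against T, L against T and B against L were tested with limma on the arrays of the 2 groups, with Benjamini-Hochberg adjustment over all genes and a call at 0.05. Folds against a group without detection are lower bounds, set against the dimmest detected probe of each array. The scripts were tested on simulated data. Promoters were searched with Python 3.11.15.

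Groups share replicate numbers. Deviations from the group means correlated at 0.17, 0.14 and 0.21 between B and L arrays of the same number, against -0.11 to 0.06 for other numbers, which met the criterion for pairing from the data and not from the labels. The tests were made without a block, and the blocked value is given beside a result between B and L that it changes. Same-numbered arrays of B and T (-0.12 to 0.04) and of L and T (-0.10 to 0.09) were not.

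The 35 genes and the further lists were chosen with earlier results of these data known. Values on every array are given for genes called in a comparison, or with groups apart by 1 on the log2 scale, by a rule; those of Adm, Pgam1, Ldha, Pdk3, Egln3, Eno2 and Cxcr4 were added after their values were seen. Of each further list, the called genes were named, up to 4 per comparison. Alternatives were no background correction, an offset of 50, median scaling, the authors' processed values, no filter on dim probes, the probe with the highest mean, all 10 arrays in 1 model, the number as a block, the methods' t-test with a random variance model, and leaving out each array. The number of arrays limits the precision.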

Additional observations from a re-analysis of the deposited data

Results flagged for a closer look

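Of the 30 genes tested for an outlying B array, 2 had one that stood far from the other 3. Hk1 was at 6.95 on B3, against 7.51 to 7.53 on the other B arrays, a gap that made up 0.97 of the whole range. Pdk1 was at 7.77 on B2, against 8.67 to 8.78 on the others, a gap of 0.90 of the range. Both gaps exceeded Dixon's critical value for 4 arrays, which chance passes in about 1 of 20 groups. Neither gene was called in any comparison, also not in the fits without B3 or without B2.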

How the results depend on the processing

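Between B and T the count of 6 genes was 4 to 9 under the settings that kept all arrays, and 1 to 6 in the fits without 1 array. It was 5 with the number as a block, which leaves out B4. Between L and T the count of 0 became 3 without background correction and 3 at an offset of 50 (Ankrd37, Bhlhe40 and Vegfa in both), and was 0 to 1 in the fits without 1 array and 0 with the block. Between B and L the count of 3 became 5 in the authors' processed values, 1 without the filter on dim probes, 6 with all 10 arrays in 1 model and 6 with the block, and was 1 to 6 in the fits without 1 array. The methods' t-test called 6, 0 and 3 in the same comparisons after Benjamini-Hochberg adjustment, and 2, 1 and 2 at the unadjusted threshold of the methods, p under 0.001. The cause of these shifts was not tested. Fits without an array, and the block in the comparisons with B, use fewer arrays, and the fit without the filter adjusts over 19057 genes. Over the 30 genes singly, no called value changed sign, 43 values fell short of the threshold and 39 newly passed it, while 1328 kept their side. Of the called genes in the further lists, Tkt between B and L changed sign in 1 setting (0.12 with its brightest probe). Without the filter on dim probes the calls of Pfkfb4 and P4ha1 against T (adjusted p = 0.0799 and 0.0686) and of Tpi1 and Car12 against L (0.077 and 0.0587) were among those lost. The probes of Egln3, Pkm and Hif1a that stand for these genes in comparisons with B were detected on 3, 2 and 1 arrays, all B, close to background. No block result is given for single genes between B and T or L and T, whose arrays share only a number.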
